A study of Homo sapiens with 4 samples.

Results

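The comparison described here follows RPE1 cells that received a negative control siRNA from 24 h to 48 h after transfection, in 1 library at each time. A gene was compared if its longest spliced RefSeq transcript had at least 300 nt and its level, summed over its transcripts, averaged at least 5 FPKM (mapped fragments scaled for transcript length and library size) over both libraries. This held for 7761 of 25027 gene symbols or unmatched identifiers, of which 7449 were protein-coding and 85 long noncoding RNAs. The remaining symbols were shorter than 300 nt (2103) or below the level (15163). Just inside the limit on level lay B4GALNT1, with 4.998 FPKM at 24 h and 5.002 FPKM at 48 h, and just outside it ZC3H12C, with 5.84 FPKM at 24 h and 4.15 FPKM at 48 h. Just inside the limit on length lay SCARNA7, of 330 nt, and just outside it SCARNA5, of 278 nt, which went from 92.1 to 42.0 FPKM.

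The study knocked down SAF-A, a nuclear protein that binds RNA and chromatin and is encoded by HNRNPU, and used 4 libraries: control siRNA at 24 h and at 48 h, and SAF-A siRNA at 24 h and at 48 h. RPE1 is an established human line of retinal pigment epithelial origin immortalised with telomerase. In all 4 groups the cells were transfected while sparse with 10 nM of a Stealth RNA duplex in a lipid reagent, kept in medium with serum, and read from total RNA depleted of ribosomal RNA. No group was untransfected, so time in culture, time since transfection and the control duplex itself cannot be told apart. Each group is 1 culture and 1 library, so the differences could not be set against a spread between replicates, and they are described without tests. The 95% intervals quoted are the authors' and cover only the error of estimating a level within a library. The libraries held 28083822 mapped reads (24 h) and 28586051 (48 h) with control siRNA, and 30701282 (24 h) and 1216740 (48 h) with SAF-A siRNA. A level of 1 FPKM on a 2 kb transcript thus stood for about 50.5 and 51.4 reads in the control libraries and for 2.19 reads in the last one.

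Sparse cultured cells divide, spread and lay down matrix, and as they fill the dish growth signals fade and cells drift toward quiescence, with more of the inhibitor CDKN1B and less histone synthesis. Medium also ages, which many cell types register through sterol, glucose and redox sensors. A transfected siRNA acts through Argonaute proteins, and besides a perfect target it can lower RNAs whose 3′ untranslated region (UTR) pairs with the few bases of its seed. These are general facts and not results of these libraries.

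Markers of mature pigment epithelium were mostly missing, although the cells carry that name. Of 14 such genes only the transcription factors MITF (8.90 and 9.01 FPKM at 24 h and 48 h) and OTX2 (2.60 and 3.77 FPKM) reached 1 FPKM in both control libraries, and 8 were below 0.1 FPKM in both. RPE65, the visual cycle enzyme, and TTR were at 0.00 FPKM. Vimentin (VIM) stood at 2145 and 1586 FPKM, all 6 markers of polarised epithelium and all 5 of endothelium were below 0.1 FPKM, and of 5 blood cell genes only CD68, which encodes a lysosomal protein, was above that (10.6 and 11.3 FPKM). HNRNPU, the gene targeted in the other arm, was at 91.2 and 84.6 FPKM with control siRNA and at 10.4 and 9.24 FPKM with SAF-A siRNA.

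Most genes stayed close to their 24 h level. The median difference in log2(FPKM + 1), 48 h minus 24 h, was 0.03 with an SD of 0.28 over genes, and 7435 of the 7761 genes (95.8%) lay within 1.5-fold. At least 2-fold higher at 48 h were 31 genes, which is 0.399% of those compared, and at least 2-fold lower were 27, which is 0.348%. Rescaling both libraries to TPM, a scale on which all libraries have the same total, turned this split into 43 higher and 17 lower. It adds about 0.08 to the differences, and somewhat more or less than that for genes at low levels. The total includes RNAs shorter than 300 nt, which were not compared and held 60.2% of summed FPKM at 24 h and 57.3% at 48 h. The shift in TPM thus depends on them, and TPM without these short RNAs was not computed. For scale, the same genes compared between SAF-A and control siRNA at 24 h gave 13 at least 2-fold higher and 14 lower, with an SD of 0.24. That comparison uses the same control 24 h library. In what follows a gene is said to have risen or fallen if it differed by at least 1.5-fold and the deposited intervals of the 2 libraries did not overlap. By that rule 164 genes rose (2.11%) and 156 fell (2.01%), and each count below should be read against these shares.

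**Figure D1:**
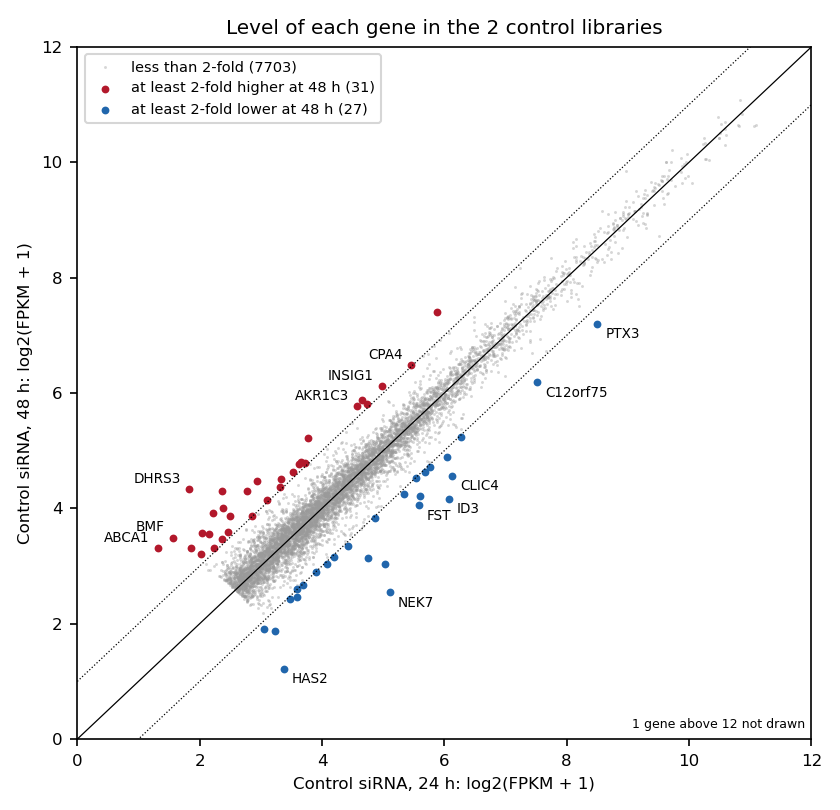
Level of each of the 7761 genes as log2(FPKM + 1), control siRNA at 24 h (x axis) against control siRNA at 48 h (y axis), 1 library each. The solid line marks equal levels and the dotted lines 2-fold. The 31 genes at least 2-fold higher at 48 h (red) and the 27 at least 2-fold lower (blue) stand off a cloud that holds all others, and 1 gene with a value above 12 is not drawn.

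The genes that rose most have varied known roles. DHRS3, a reductase that turns retinaldehyde into retinol, stood at 2.56 FPKM (95% interval 2.08 to 3.03) at 24 h and at 19.2 FPKM (17.9 to 20.5) at 48 h, a ratio of 7.50. ABCA1, the pump that exports cholesterol to apolipoproteins, went from 1.49 FPKM (1.35 to 1.64) to 8.89 FPKM (8.54 to 9.24), a ratio of 5.95. BMF, a member of the BCL2 family that promotes cell death, went from 1.97 FPKM (1.41 to 2.54) to 10.3 FPKM (9.03 to 11.5). In each of these 3 genes the lower bound at 48 h was more than 3 times the upper bound at 24 h. SHISA2, which holds back Wnt and FGF receptors in the endoplasmic reticulum, was at 4.17 and then 18.6 FPKM. SERPINB2, an inhibitor of plasminogen activators, was at 3.67 and 14.1 FPKM, and SPNS2, the exporter of sphingosine 1-phosphate, at 4.21 and 15.1 FPKM.

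The next genes in the order follow, some of them below 5 FPKM at 24 h. ARRDC3, an arrestin relative that takes part in receptor degradation, went from 6.69 to 21.3 FPKM. TMEM156 went from 5.88 to 18.8 FPKM, PNPLA3, a lipid droplet protein, from 2.62 to 8.94 FPKM, and DIO2, which activates thyroid hormone, from 4.62 to 13.6 FPKM. The long noncoding RNA LOC730101 went from 12.7 to 36.5 FPKM. GPRC5A, an orphan receptor known as a retinoid-inducible gene, rose from 9.01 to 21.9 FPKM, AKR1C3, a reductase of steroids and prostaglandins, from 22.9 to 53.5 FPKM, and RSRP1 from 11.5 to 26.9 FPKM. DDIT4, an inhibitor of the growth kinase complex mTORC1, rose from 11.4 to 26.3 FPKM. The genes just behind it include INSIG1, the brake on sterol synthesis (30.6 to 68.7 FPKM), GABARAPL1 of the autophagosome (4.54 to 11.1 FPKM) and the paraspeckle RNA NEAT1 (10.5 to 23.9 FPKM). Among them were also 3 genes that restrain division: CDKN1B, which encodes the kinase inhibitor p27 (25.7 to 55.3 FPKM), BTG2 (3.71 to 8.89 FPKM) and BTG1 (7.60 to 16.8 FPKM). CPA4, a secreted carboxypeptidase, rose from 43.0 to 88.7 FPKM, TNFRSF21, a death receptor, from 4.15 to 10.1 FPKM, and the potassium channel gene KCNK6 from 6.28 to 13.6 FPKM.

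Some of the 31 entries are uncertain. RPL21P28 (57.8 and 168 FPKM) is a transcribed pseudogene that shares sequence with RPL21, and RPL21 itself went the other way, from 188 to 121 FPKM. PCNA-AS1 (24.3 and 58.2 FPKM) lies antisense to PCNA, and how strand was handled is not given in the sources used here, so reads from the pair cannot be told apart. The intervals of CASP1 overlapped (3.05 and 8.27 FPKM), and 2 entries carry identifiers that matched no symbol.

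The genes that fell most also have varied known roles. NEK7 (chromosome 1, 198126108 to 198291548, GRCh37), a kinase of mitosis and of the NLRP3 inflammasome, stood at 33.4 FPKM (32.3 to 34.5) at 24 h and at 4.83 FPKM (4.41 to 5.25) at 48 h, a ratio of 6.92. HAS2 (chromosome 8, 122625271 to 122653630), the synthase of hyaluronan, a large sugar polymer of the matrix, went from 9.37 FPKM (8.60 to 10.1) to 1.33 FPKM (1.07 to 1.58), a ratio of 7.06. ID3, an inhibitor of differentiation factors and a standard target of BMP signals, went from 66.2 FPKM (63.1 to 69.2) to 16.97 FPKM (15.4 to 18.5). These 3 genes were lower at 48 h by far more than the width of their intervals. FST encodes follistatin, which traps activin, and was at 46.8 and 15.7 FPKM. SMAD5, which carries BMP signals to the nucleus, was at 7.32 and 2.77 FPKM.

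Others fell from high levels. PTX3, a secreted pentraxin of innate immunity, went from 362 to 146 FPKM, C12orf75 from 182 to 71.9 FPKM, and CLIC4, a chloride channel relative, from 69.0 to 22.7 FPKM. HDGFL3 went from 31.7 to 7.15 FPKM and UHMK1, a kinase that phosphorylates p27, from 26.1 to 7.83 FPKM. BIRC2, a ubiquitin ligase of TNF signalling, went from 64.7 to 28.5 FPKM, TMED7, a cargo receptor of the secretory pathway, from 47.6 to 17.7 FPKM, and NCKAP1, of the actin-branching WAVE complex, from 39.5 to 18.1 FPKM. The named group also held CHURC1 (8.42 to 2.65 FPKM) and FCF1, a factor of ribosomal RNA processing (11.01 to 4.53 FPKM), at lower levels. Behind these 15 came 12 entries close to 2-fold, among them RPRD1A (20.5 to 9.21 FPKM), the G protein subunit gene GNG12 (76.7 to 36.8 FPKM), the kinetochore gene CENPH (28.0 to 13.3 FPKM) and CBFB, a partner of RUNX transcription factors (45.4 to 22.2 FPKM).

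**Figure D2:**
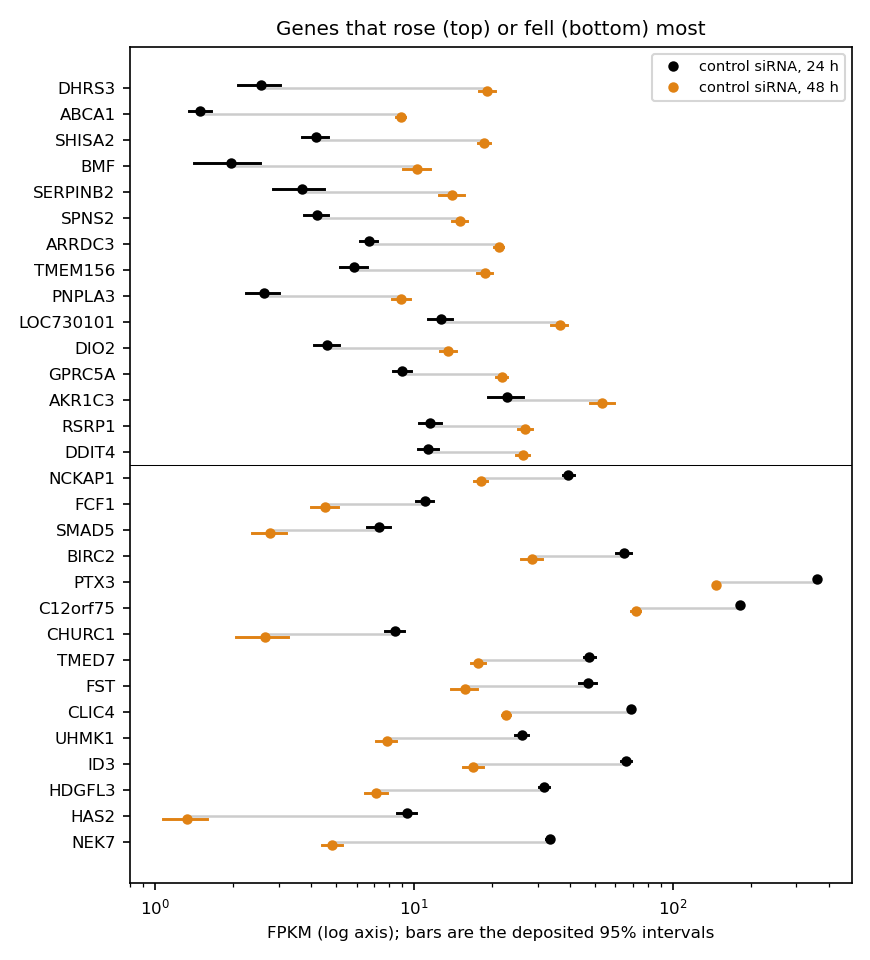
Level in FPKM (log axis) of the 15 genes that rose most (above the line) and the 15 that fell most (below it) with control siRNA at 24 h (black) and 48 h (orange). Bars are the deposited 95% intervals, which do not overlap within any gene, and HAS2 and NEK7 at the bottom show the widest gaps among the genes that fell.

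The SAF-A libraries give a second course from 24 h to 48 h that shares no library with the control one, although the SAF-A 48 h library is shallow and its differences are wide (SD 1.03 over the same genes). Of the 27 genes at least 2-fold lower with control siRNA, 22 were also lower at 48 h with SAF-A siRNA, 12 of them by at least 2-fold, and 1 was at least 2-fold higher. HAS2 went from 10.1 to 1.07 FPKM there, the latter from about 4 reads, ID3 from 94.4 to 22.2 FPKM, FST from 44.4 to 13.98 FPKM and PTX3 from 283 to 93.4 FPKM. NCKAP1 did the opposite and went from 56.6 to 122 FPKM. CLIC4 (103 and 100 FPKM), C12orf75 (200 and 187 FPKM) and HDGFL3 (37.2 and 33.2 FPKM) stayed near their level. Over all 7761 genes 48.1% were lower at 48 h with SAF-A siRNA, 1247 of them by at least 2-fold (16.1%), and 1276 were at least 2-fold higher (16.4%).

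For the 31 genes at least 2-fold higher with control siRNA the second course was mixed. With SAF-A siRNA 18 were higher at 48 h, 10 of them by at least 2-fold, and 5 were at least 2-fold lower. Of all genes 51.9% were higher there, so the share of 18 in 31 (58.1%) is near the background, as is the 16.1% at least 2-fold lower, while the share at least 2-fold higher was 32.3%. ABCA1 went from 1.16 to 16.2 FPKM, BMF from 2.74 to 11.4 FPKM, SPNS2 from 1.93 to 11.8 FPKM and AKR1C3 from 29.2 to 234 FPKM. DHRS3, first in the control libraries, went from 3.50 to 0.51 FPKM, SHISA2 from 3.46 to 0.31 FPKM and TMEM156 from 5.31 to 0.50 FPKM, each of the 48 h values resting on about 1 read. DIO2 went from 3.06 to 0.26 FPKM on about 2 reads. CDKN1B stayed at 25.1 and 25.7 FPKM.

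At 24 h the level with SAF-A siRNA was above that with control siRNA for 22 of the 27 genes at least 2-fold lower with time (81.5%), for 16 of the 31 at least 2-fold higher (51.6%) and for 2586 of all 7761 genes (33.3%). Both groups were chosen with the control 24 h library that this count uses again, so nothing is read from it. NEK7 was at 79.0 FPKM with SAF-A siRNA at 24 h against 33.4 FPKM in the control 24 h library, SMAD5 at 18.02 against 7.32 FPKM and CLIC4 at 103 against 69.0 FPKM.

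**Figure D3:**
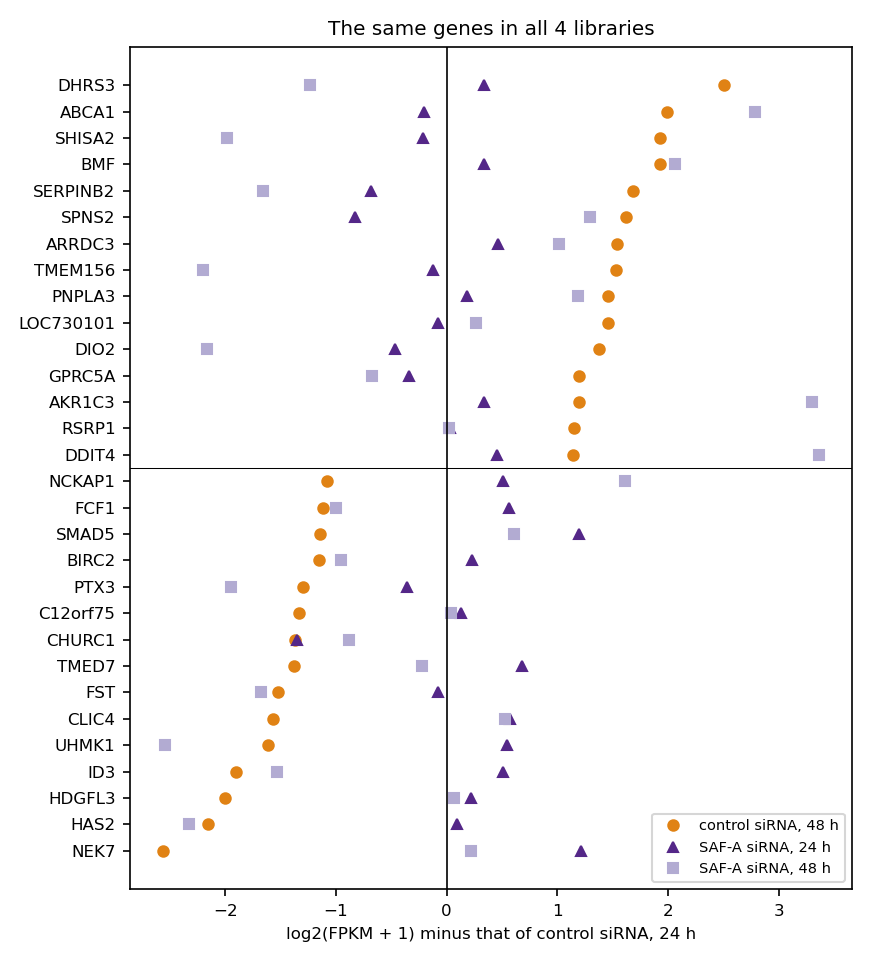
The 30 genes of the plot of named genes in the other 3 libraries, as the difference in log2(FPKM + 1) from control siRNA at 24 h (vertical line). Circles are control siRNA at 48 h, triangles SAF-A siRNA at 24 h and squares SAF-A siRNA at 48 h, 1 library each. Triangles lie close to the line or to its right for most genes that fell, CHURC1 being far to its left, and squares are widely scattered.

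The genes that fell shared short words in their 3′ UTRs, which was looked for after their names were seen. Among 7321 compared genes with an annotated 3′ UTR of at least 50 nt, 143 fell and 149 rose. Of 14492 sequences of 7 bases held by at least 100 of these UTRs, TACATTT was the one whose share among the fallen genes stood furthest above its share overall: 87 of 143 (60.8%) held it against 25.9% of all 7321, a gap of 35.0 percentage points. Second was ACATTTA, the same word moved on by 1 base, with 50.3% against 21.2%, a gap of 29.1 points. Words made only of A and T were not far behind among the fallen genes: ATATTTA at 27.6 points, TATTTTA at 25.7, TTTATTT at 25.6 and AAATATT at 25.3. The furthest word among the genes that rose, AAATGAA, stood 13.1 points above its overall share. The 8 bases that join the first pair, TACATTTA, occurred in the 3′ UTRs of 7 of the 26 genes with a UTR that were at least 2-fold lower (26.9%). They occurred in 576 of all 7321 (7.87%) and in 1 of the 23 at least 2-fold higher, CPA4. The 26 genes belong to the fallen genes from which the word was picked. The sites of the 7 lower genes, and that of CEP170, next in order with 24.0 and 11.5 FPKM, are shown with their surroundings. They are among the matches behind this result. Each line gives 24 bases of the GRCh37 reference, 5′ to 3′ on the strand of the gene, with the 8 bases in capitals.

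UHMK1 3′ UTR, chr1:162492436-162492459, plus strand: gtactttaTACATTTAtttaatcc
CLIC4 3′ UTR, chr1:25168444-25168467, plus strand: ttctaaagTACATTTAatgtagat
SMAD5 3′ UTR, chr5:135513757-135513780, plus strand: ataaaattTACATTTAatacagat
FCF1 3′ UTR, chr14:75203346-75203369, plus strand: gtaacccaTACATTTAtacaatta
GNG12 3′ UTR, chr1:68169212-68169235, minus strand: gacaacttTACATTTAatgcttca
SEC22C 3′ UTR, chr3:42589822-42589845, minus strand: ttaaccctTACATTTAtatgattc
SEPTIN10 3′ UTR, chr2:110301188-110301211, minus strand: tatctgatTACATTTAtattccaa
CEP170 3′ UTR, chr1:243287787-243287810, minus strand: atttttgtTACATTTAttacttat

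The classes below are set by how much of this word a 3′ UTR held. The word was picked for its excess among the fallen genes, so shares of fallen genes by class restate that choice. The medians by class use the same libraries and include the fallen genes. Both are given as a description. The 576 genes with all 8 bases had a median difference of -0.07 in log2(FPKM + 1), the 1318 with only the first 7 bases -0.01, the 596 with only the last 7 bases 0.03, the 1410 with only the 6 shared bases ACATTT 0.05, and the 3421 with none of these 0.05. Of the 576 genes 45 fell (7.81%), against 3.19%, 1.68% and 1.77% in the next 3 classes and 21 of 3421 (0.614%) in the last. The share that rose was 1.56% in the first class and 2.08% in the last. In the first class 59.0% of all genes were below 0, against 40.4% of the genes with none. More copies did not go with a lower median: it was -0.04 for the 56 genes with 2 or more copies of the 8 bases, 6 of which fell (10.7%) but none by 2-fold, and -0.07 for the 520 with 1 copy, 39 of which fell (7.50%), 7 of them by 2-fold. NEK7, HDGFL3, TMED7, C12orf75 and NCKAP1 held the first 7 bases, and HAS2 and FST the last 7. Among the genes at least 2-fold higher, ABCA1, SHISA2, BTG1 and KCNK6 held the first 7 bases and CPA4 all 8. In all, 18 of the 26 genes at least 2-fold lower held 7 or 8 of the bases (69.2%), as did 34.0% of all genes and 5 of the 23 at least 2-fold higher (21.7%), where the first share again follows from how the word was picked. PTX3, BIRC2 and CHURC1 held none of them.

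UTRs with the word are long and rich in A and T, and the fallen genes as a whole had longer UTRs with more A and T. The median 3′ UTR of the fallen genes was 2024 nt with 64.5% A+T, against 1252 nt and 59.1% for all genes. In the class with all 8 bases the median UTR was 3319 nt (64.3% A+T), and in the class with none it was 581 nt (52.3% A+T). Within 5 bins of UTR length with equal numbers of genes, the genes with 8 bases were lower than those with none by 0.05 to 0.16, and within 5 bins of A+T content by 0.09 to 0.22. The word was picked from the same libraries, so these differences cannot separate it from UTR length or A+T content. The bins of the shortest UTRs and of the lowest A+T content held only 18 and 10 genes with the 8 bases, and without these bins the ranges were 0.05 to 0.15 and 0.09 to 0.16. The 25 genes that held the 8 bases only in the coding sequence had a median of -0.09, and none of them fell. Of all 7321 genes with a UTR 1.95% fell, so none in 25 is near that share and is not read as a result. Of the 2370 mature miRNAs in the RefSeq table none has AAAUGUA, the complement of the first 7 bases, as its bases 2 to 8. Only this complement was looked up. Pairing of miRNAs with the last 7 bases or with a shorter part of the word was not tested. The sequence of the control duplex is not given in the sources used here, and whether the word pairs with it was not tested.

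The other libraries show the same classes side by side. Relative to SAF-A siRNA at 24 h, the median level of the genes with 8 bases was -0.03 in the control 24 h library and -0.08 in the control 48 h library, and that of the genes with none was 0.10 and 0.15. These 2 comparisons share the SAF-A 24 h library. With SAF-A siRNA the difference from 24 h to 48 h was -0.05 for genes with 8 bases, -0.08 and -0.05 for those with 7, -0.02 for those with 6 and 0.21 for those with none, so that the classes holding any form of the word differed little from each other.

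**Figure D4:**
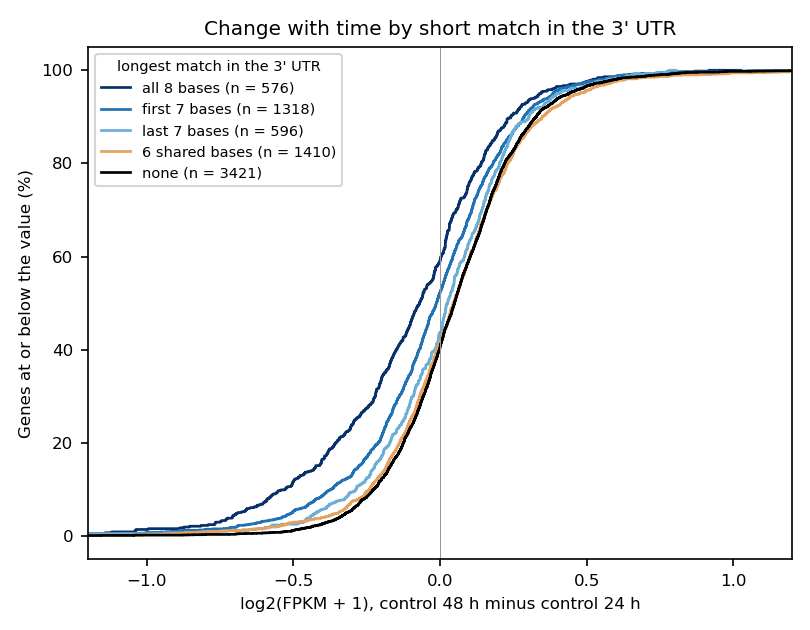
Cumulative share of genes (y axis, %) by their difference in log2(FPKM + 1) between the control libraries (x axis, drawn from -1.2 to 1.2), for 5 classes of genes set by the longest match in the 3′ UTR. The curve of the 576 genes with all 8 bases lies furthest left, that of the 1318 genes with the first 7 bases next, and the curves for the 6 shared bases and for none nearly coincide.

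Growth-related genes were described next through lists that do not depend on the UTR. Over all 7761 genes the median was 0.03 and 4328 were higher at 48 h, and each list is given beside that. Of 44 replication-dependent histone genes, which are transcribed in S phase, 43 were lower at 48 h and the median was -0.24. H3C1 fell from 50.4 to 23.9 FPKM, while H2BC8 (289 and 197 FPKM) stayed within 1.5-fold on the log scale used. Histone genes are close copies of each other, so reads may be split between them. Of 52 genes of replication licensing and the fork, 43 were lower (median -0.12) and 1 fell, RFC5, a subunit of the clamp loader (11.8 to 6.94 FPKM). Of 48 genes of the spindle, kinetochore and checkpoint, 35 were lower (median -0.08) and 1 fell, CENPA, the histone variant of centromeres (12.2 to 7.33 FPKM). Rescaling to TPM brought these 3 medians to -0.16, -0.04 and -0.01. In the G1 list the direction depends on the scale (median -0.02, and 0.05 in TPM), with CDKN1B higher and CDK6 lower (11.4 to 7.10 FPKM). With SAF-A siRNA the histone median from 24 h to 48 h was -2.45 with all 44 lower.

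Of 2 lists of early growth signals, the immediate early genes stood mostly on the higher side at 48 h. Of 15 immediate early genes, which answer serum and growth factors within minutes, 14 were higher at 48 h (median 0.37), and the 2 that rose were BTG1 and BTG2. JUN was at 47.6 and 70.0 FPKM. With no filter on low FPKM the median over all 29 listed genes was 0.23. Of 13 MAP kinase feedback genes 8 were higher (median 0.18, and 0.10 over all 26 listed with no filter on low FPKM). Over all genes compared 55.8% were higher, so this count is near the background. Of the 13 genes 4 rose. These were the phosphatases DUSP5 (60.2 to 119 FPKM), DUSP6 (6.53 to 11.96 FPKM) and DUSP1 (33.0 to 57.0 FPKM), and the receptor inhibitor ERRFI1 (51.7 to 85.7 FPKM). With SAF-A siRNA the median of the immediate early genes was -0.81, with 11 of 15 lower at 48 h.

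Actin and YAP lists had lower medians, and matrix and adhesion lists were split between both directions. Of 22 genes of the actin cytoskeleton and its regulator SRF, 17 were lower (median -0.20), and the actin binder TAGLN (295 to 181 FPKM) and the smooth muscle actin ACTA2 (17.7 to 11.4 FPKM) fell. Of 22 YAP and TEAD targets 13 were lower (median -0.12) and 1 fell, IGFBP3, a carrier of insulin-like growth factors (35.7 to 23.1 FPKM). The other 9 were higher, none of them past the 1.5-fold rule, among them CCN1 (73.2 and 109 FPKM) and CCN2 (83.4 and 93.0 FPKM). Of the 35 matrix genes 17 were higher and 18 lower, with a median of -0.07 that became 0.01 in TPM. Besides HAS2, those that fell included the protease ADAMTS1 (42.1 to 23.9 FPKM) and the collagen cross-linker LOX (19.3 to 10.9 FPKM). COL8A1 (150 to 286 FPKM), COL5A2 (17.5 to 30.8 FPKM) and the basement membrane protein NID2 (18.2 to 32.0 FPKM) rose. Of the integrins, cadherins and junction genes (median -0.04, and 0.03 in TPM) the adhesion molecule ALCAM fell, from 201 to 105 FPKM, and the integrin subunit ITGB8 rose, from 14.1 to 22.6 FPKM.

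Of 20 BMP and TGF-beta targets 12 were lower (median -0.11). ID3 and FST were among those that fell, and ID1, a relative of ID3, was at 47.2 and 32.5 FPKM, which is short of the 1.5-fold rule. The BMP antagonist NOG rose from 12.99 to 21.6 FPKM, and TGIF1, a repressor of SMAD signals, from 15.3 to 29.9 FPKM. Of 12 NF-kB cytokines and inhibitors 8 were lower (median -0.12). BIRC2, the inhibitor NFKBIA (28.6 to 15.2 FPKM) and the chemokine CXCL8 (59.3 to 34.7 FPKM) fell, while the cytokine LIF rose from 31.0 to 48.3 FPKM. Of 22 interferon-stimulated genes 21 were higher (median 0.27, and 0.07 among the 7 averaging 20 FPKM or more). The 4 that rose were PARP14 (5.50 to 10.1 FPKM), IFIT3 (8.13 to 14.2 FPKM), the RNA sensor RIGI (12.9 to 21.8 FPKM) and IFI35 (5.28 to 8.59 FPKM). With SAF-A siRNA 19 of these 22 genes were higher at 48 h.

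Lists of redox and nutrient genes had medians above that of all genes, with few members past the rule. Of 22 targets of NRF2, the master regulator of antioxidant genes, 20 were higher (median 0.36), but only AKR1C3 and OSGIN1 (7.63 to 12.2 FPKM) rose, and SLC7A11, the cystine importer, fell (58.5 to 38.5 FPKM). The ferritin light chain FTL was at 839 and 1187 FPKM. In the list of TXNIP, arrestin relatives and glucose sensing, 6 of 9 genes were higher (median 0.42). ARRDC3, TXNIP, a brake on glucose uptake (9.67 to 17.4 FPKM), and the glucose transporter SLC2A1 (88.1 to 149 FPKM) rose. VEGFA, the growth factor of blood vessels, rose from 8.85 to 15.9 FPKM in the list of glycolysis and hypoxia, where 19 of 28 genes were higher and the median was 0.07.

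Lipid lists had few members past the rule. Of 7 targets of the sterol sensor LXR and sterol carriers, 6 were higher (median 0.24), and ABCA1 was among those that rose. Of 24 genes of sterol synthesis and uptake 18 were higher (median 0.15), and INSIG1 was the 1 that rose. HMGCS1, an early enzyme of the pathway, was at 17.9 and 26.6 FPKM. Of 15 genes of fatty acid synthesis and desaturation 11 were higher (median 0.12, and -0.05 among those averaging 20 FPKM or more), and none rose or fell. ACLY, which makes cytosolic acetyl-CoA, was at 37.9 and 25.7 FPKM and the elongase ELOVL5 at 35.0 and 24.1 FPKM. With SAF-A siRNA all 24 of these genes and all 7 of the LXR list were higher at 48 h, with medians of 1.28 and 1.18. Of 46 lysosome and autophagy genes 33 were higher (median 0.22), and GABARAPL1, the protease CTSD (126 to 194 FPKM) and the galactosidase GLA (34.7 to 54.6 FPKM) rose. Of 13 BCL2 family members 10 were higher (median 0.28), but BMF alone rose.

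Housekeeping lists shifted little, and not all in the same direction. Of 79 cytosolic ribosomal protein genes 72 were higher (median 0.14), and of 75 nuclear-encoded subunits of the respiratory chain 65 were higher (median 0.18). RPS29 (498 to 921 FPKM) and NDUFA3 (18.9 to 34.1 FPKM) rose, and RPL21 and RPSA (7.22 to 3.53 FPKM), which have many pseudogenes, fell. Of 19 chaperones of the endoplasmic reticulum 18 were lower (median -0.14, and -0.06 in TPM), none of them past the 1.5-fold rule. HSPA5, the main one, was at 97.2 and 72.3 FPKM. The 35 proteasome genes had a median of 0.06, close to that of all genes. Among the remaining members at least 1.5-fold apart, the serine synthesis enzyme PSAT1 fell from 13.5 to 7.91 FPKM, the heat shock protein HSPB1 from 25.9 to 13.7 FPKM and the nucleotide reductase subunit RRM2B from 18.9 to 11.2 FPKM. SESN2, a stress-induced inhibitor of mTORC1, rose from 6.44 to 11.1 FPKM and the clock regulator BHLHE40 from 3.42 to 6.60 FPKM.

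**Figure D5:**
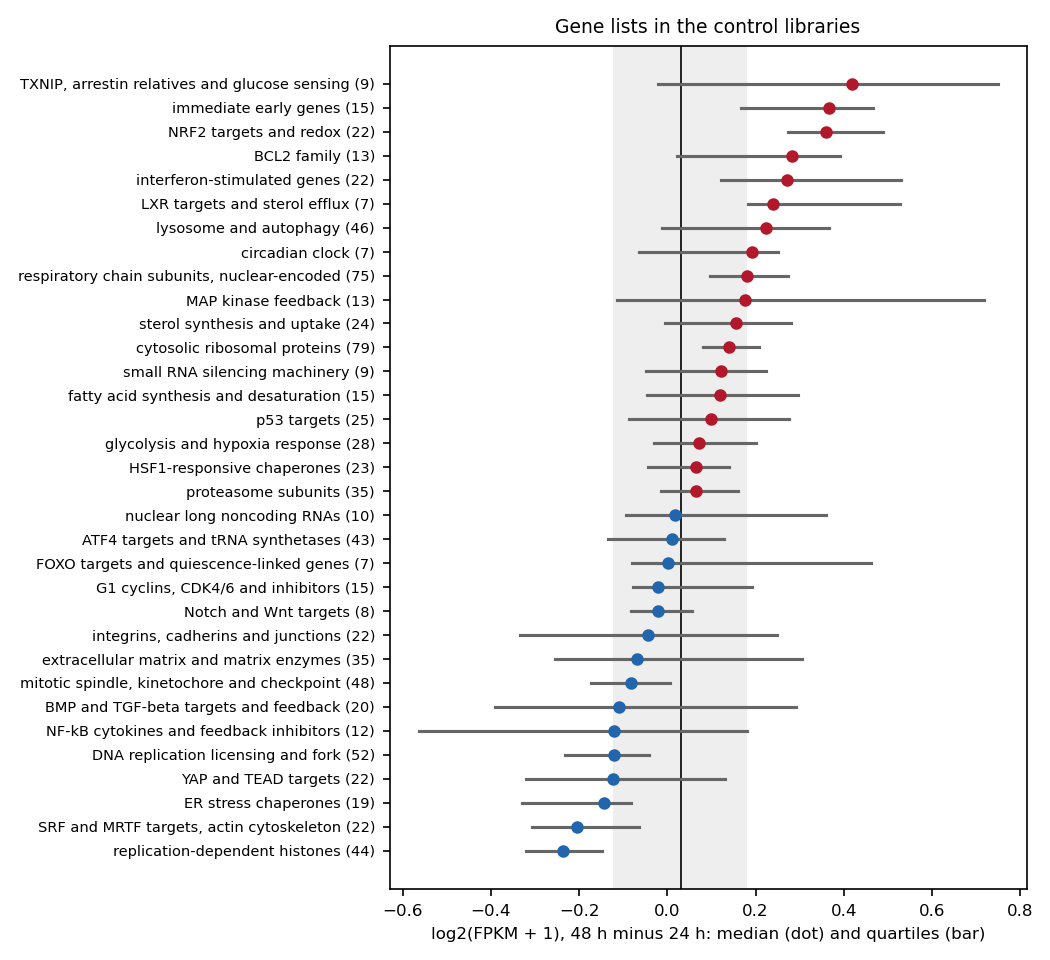
Median (dot) and quartiles (bar) of the difference in log2(FPKM + 1), control 48 h minus control 24 h, for each gene list, with the number of genes compared in brackets. The vertical line and grey band are the median and quartiles of all 7761 genes, and dots are red above that median and blue below it. The histone list (-0.24) is lowest and the list of TXNIP and arrestin relatives (0.42) highest.

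Within genes, the share of each transcript was mostly steady. Among genes listed with more than 1 transcript, 1577 reached 20 FPKM in both control libraries, and of these 66 (4.19%) moved at least 0.3 of their total from some transcripts to others, and in 64 of them 1 transcript was higher and 1 lower with intervals apart. The changes at the top were exchanges of nearly the whole gene between transcripts of almost the same length. ACOT9, a mitochondrial thioesterase, was listed almost entirely as a transcript of 1700 nt at 24 h (32.4 FPKM, then 0.01 FPKM) and as one of 1727 nt at 48 h (0.00 FPKM, then 31.9 FPKM). GNG10, a G protein subunit, was listed mainly as a transcript of 1255 nt at 24 h (34.1 and 0.04 FPKM). At 48 h it was listed mainly as one of 1252 nt (0.07 and 34.9 FPKM). GSPT1, a translation termination factor, was listed mainly with 7153 nt at 24 h (27.5 and 2.51 FPKM) and with 7150 nt at 48 h (0.00 and 21.7 FPKM). The summed levels of these 3 genes differed by -0.02, 0.03 and -0.17 on the log2 scale. In 20 of the 66 genes the transcripts that lost and gained most differed by 10 nt or less. The SAF-A 24 h library was nearer in its shares to the control 48 h library for 32 of the 66 genes and nearer to the control 24 h library for 34. It listed ACOT9 with the transcript of the 48 h library, and HMOX2, a heme oxygenase that shifted too, mainly with that of the 24 h library.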

How the data were processed

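RNA of 4 libraries was sequenced as 50-base single-end reads, per the labels' protocols. The submitters' processing notes name TopHat2 2.0.10, Bowtie2 2.1.0, Cufflinks 2.2.1, TopHat, Cuffdiff and hg19, without roles; the strand setting is not given in the sources used here. The authors deposited FPKM per RefSeq transcript with a status and lower and upper 95% bounds (per the file headers), and transcript models whose other attributes the authors deposited as text. FPKM and bounds were summed per symbol (RefSeq GRCh38.p14 names; 97.1% of 47338 rows matched). Adding bounds overstates the width of an interval. Rows that failed in the authors' quantification affect 11 of the genes compared, which were never called apart. Differences are of log2(FPKM + 1), which understates changes of low genes; ratios are of FPKM. Mapped reads and reads per gene were derived from deposited coverage and FPKM, with an assumed fragment of 200 ± 80 nt; there are no molecular identifiers, and intervals reflect counting error alone.

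Named genes are the 15 highest and 15 lowest differences among genes with status OK, at least 2-fold and intervals apart, without pseudogenes, antisense and readthrough genes, and from each list up to 4 members per direction past the 1.5-fold rule; other names were chosen after their values were seen, namely the 2-fold genes behind those 15 and list members given as values. Some list members that met the rule are not reported here. The genes compared, the lists and the comparison were chosen with earlier results of these data known. The 3′ UTR words, the UTR classes and their alternatives were chosen after seeing the data. UTRs are those of the canonical GENCODE release 44 transcript on GRCh37, on the gene's strand only. Some are longer than the longest RefSeq transcript of the gene, as in HDGFL3 (11520 against 2434 nt) and NCKAP1 (16590 against 5015 nt). A word found in such a UTR may lie outside the RNA that was measured. Promoters are 250 bases before to 50 after the RefSeq start (GRCh38.p14). The counting and word search were tested on simulated data. Alternatives were other pseudocounts, filters, lengths, scalings and thresholds. Python 3.11.15, pandas 2.3.3, numpy 2.4.6 and pysam 0.24.0 were used.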

Additional observations from a re-analysis of the deposited data

How the results depend on the processing

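With 1 library a group no replicate could be left out, and no paired analysis was possible because each group has 1 sample. The counts of genes at least 2-fold higher and lower (31 and 27) became 72 and 56 with no filter on low FPKM, 65 and 44 at a mean of at least 1 FPKM, 7 and 13 at 20 FPKM, 165 and 133 with no length filter, 43 and 17 in TPM, and 169 and 157 at 1.5-fold. A pseudocount of 0.1, centring on the median, a length of at least 1000 nt and intervals apart left both within 1.5 times. The 66 genes with shifted transcript shares became 368 at 5 FPKM, 14 at 50 FPKM and 19 at a share of 0.5. Median differences of lists changed sign in 15 of 165 cases: in TPM, matrix 0.0084, G1 0.055, Notch and Wnt 0.051 and integrins 0.032; at 20 FPKM, matrix 0.078, fatty acids -0.047, G1 0.0012, FOXO -0.052, integrins 0.072, silencing -0.093 and nuclear noncoding RNAs -0.033; with no filter, G1 0.015; on centring, FOXO -0.030, ATF4 -0.021 and nuclear noncoding RNAs -0.013. Genes with the 8 bases differed from genes with none by a median of -0.12, and by -0.09 to -0.13 under 5 alternatives chosen after seeing the data. The word itself was picked from the same libraries, so these differences are a description. The causes were not tested beyond the smaller or larger sets of genes these settings admit. The intervals do not cover variation between cultures, and SAF-A values at 48 h rest on few reads.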

Other observations

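Genes that fell were poorer in G and C along the whole transcript. Their median GC content was 42.3%, against 48.6% for genes that rose and 47.9% for all genes compared. In the fifth of genes with the lowest GC content (below 41.0%) 4.39% were at least 1.5-fold lower at 48 h and 1.42% higher, and in the fifth with the highest (above 57.8%) 0.711% were lower and 1.68% higher. Other features showed smaller differences: over 5 equal bins the share at least 1.5-fold lower ran from 1.61% to 2.26% by level, from 1.67% in the shortest genes to 2.32% in the longest by gene span, and from 2.25% with the fewest exons, and 3.03% in the next bin, to 1.10% with the most. How GC content and the 3′ UTR words combine was looked at only through the A+T content of the UTR.

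Promoters of 6369 of the genes, each 300 bases from RefSeq, were searched on both strands for 15 short motifs. The TATA box TATAAA was found in 15 of 130 genes that rose (11.5%), in 6 of 117 that fell (5.13%) and in 5.46% of all. The AP-1 site TGANTCA was found in 6.15%, 9.40% and 4.33%, and the CCAAT box CCAAT in 41.5%, 29.9% and 38.8%. The FOXO motif TGTTTAC was found in 4 genes that rose (3.08%), in 1 that fell (0.855%) and in 2.17% of all. The motif TGACNNNGC, named ARE, was found in 20.0%, 10.3% and 15.5%. Values of the remaining motifs are not reported here. A match describes these letters in the window and is not evidence that a factor binds there.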
